A study of Mus musculus with 14 samples.

Results

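Glypicans and syndecans are the membrane-bound heparan sulphate proteoglycans of vertebrate cells, and the 10 mouse genes that encode them were followed through embryonic dorsal skin epithelium at the start of hair follicle formation. The genes, chosen by name, are Gpc1 to Gpc6 for the glypicans and Sdc1 to Sdc4 for the syndecans. Of these 10, 9 had values among the 26252 genes of the count table and all 9 passed the low-count filter, which kept 15382 genes. The expression of Gpc5 was not analysed here. Counts came from 14 libraries of wild-type C57BL/6JOlaHsd embryos at E14.5. Pools of 3 to 4 littermates were sorted for MAdCAM-1, an adhesion molecule on the surface of placode cells, into a positive, placode-enriched fraction and a negative fraction called interfollicular epithelium (IFE), with 7 libraries of each forming 7 pairs by title code. No treatment or mutant allele distinguishes the fractions, and each library is a pool of animals, so values are averages over several embryos and all cell states inside a sort gate.

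A hair placode is a local thickening of the embryonic epidermis that gives rise to a hair follicle. Glypicans are held on the cell surface by a lipid anchor and carry heparan sulphate chains close to the membrane, whereas syndecans span the membrane and end in a short cytoplasmic tail that binds scaffold and signalling proteins. Their heparan sulphate chains bind Hedgehog, Wnt, FGF and BMP ligands, which act between the cells of the skin epithelium and the mesenchyme beneath it, and the chains are built and edited by a dedicated set of enzymes.

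Total counts per library lay between 23.8 and 49.5 mega counts. Madcam1, the gene of the sorted protein, stood between 36.5 and 66.6 CPM (counts relative to the scaled library total) in placode-enriched and between 0.171 and 1.23 CPM in IFE libraries, a check of the sort only. All 10 hair placode markers were higher in the placode-enriched fraction. Of 11 tested markers of suprabasal epidermis, 10 were lower, and their summed level was 225 to 487 CPM against 2981 to 4628 CPM in IFE. Of 7 basal epidermis markers, 3 were higher and 3 lower, and their sums overlapped, at 5422 to 7178 against 6182 to 7815 CPM in IFE. The fractions therefore differed in suprabasal markers as well as in placode markers, and the part of this in the results below was not tested. In bulk RNA, fewer cells of a type and less RNA per cell cannot be told apart.

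Single values rest on 61 counts (Gpc6) to 10496 counts (Gpc3) per library. Of the 9 genes, 5 were higher and 1 was lower in the placode-enriched fraction (quasi-likelihood test of edgeR, blocked by pair, adjusted p under 0.05 over all genes tested), and 3 did not pass. Over all genes tested, 31.1% passed in either direction, 15.5% as higher and 15.6% as lower. The median log2 fold change was 0.29 over the 9 genes and -0.02 over all genes. For 4 of the 9, Gpc2, Gpc4, Sdc4 and Sdc1, the values of the 7 and 7 libraries did not overlap, which held for 14.8% of all genes tested.

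**Figure D1:**
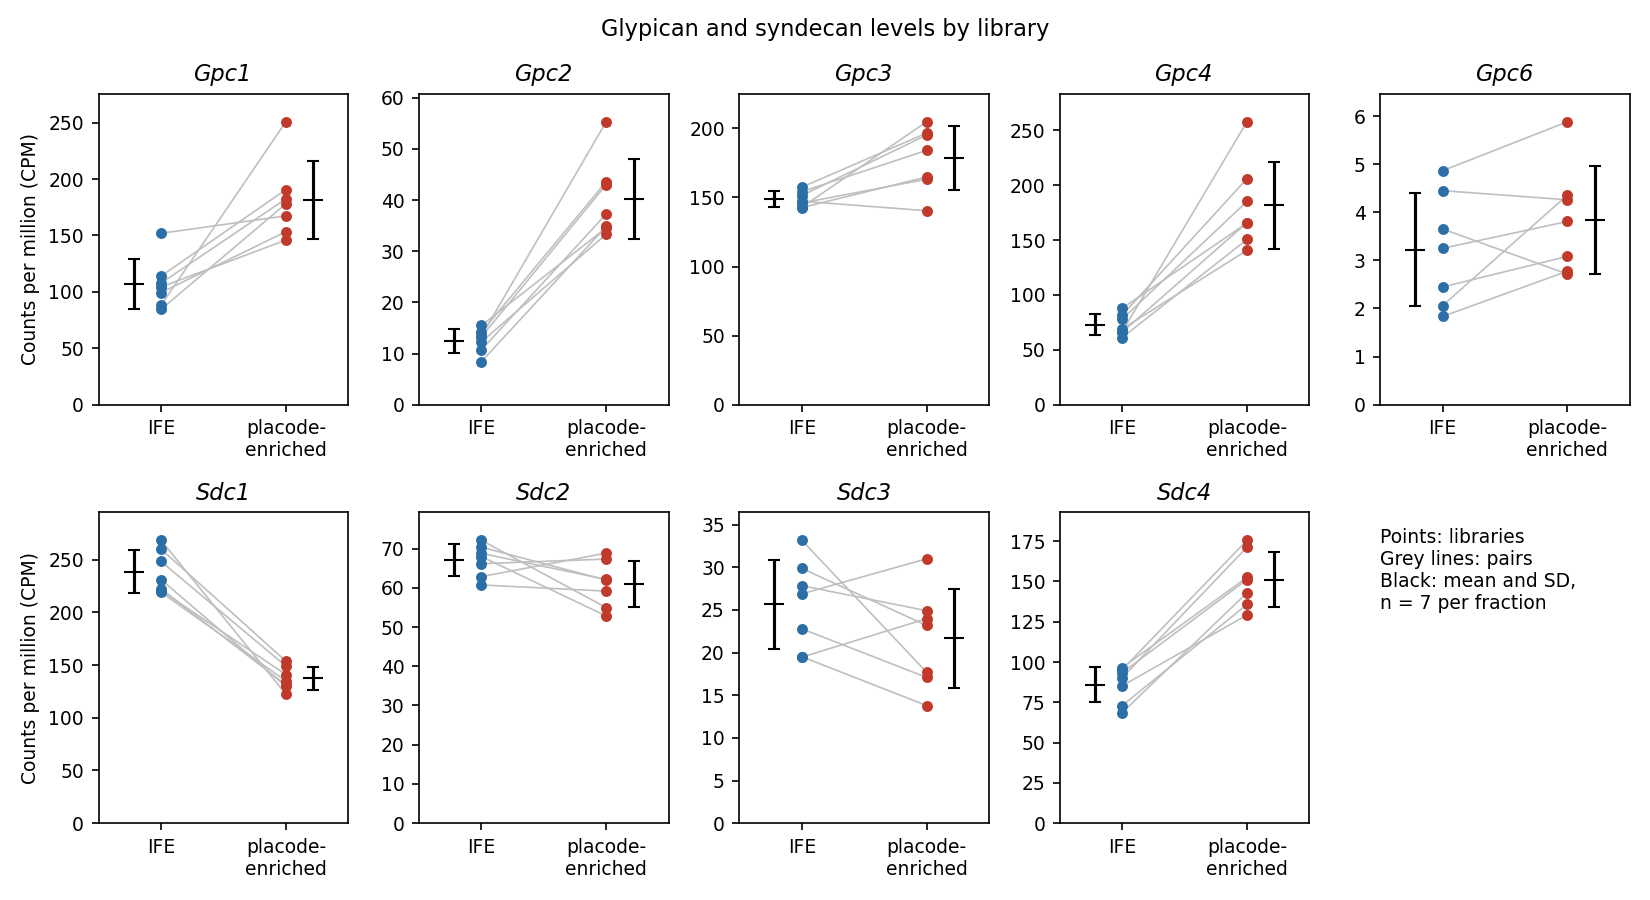
Level of each gene in CPM (y axis, starting at 0) in the IFE and placode-enriched libraries (x axis), with grey lines joining the libraries of a pair and black marks for mean and SD (n = 7 each). Gpc2, Gpc4 and Sdc4 were higher and Sdc1 lower in every placode-enriched library than in any IFE library, whereas the fractions overlapped for the other 5 genes.

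Promoter sequences were at hand for 7 of the 10 genes (RefSeq, GRCm38.p6, from 250 bases before to 50 bases after the annotated start). They are printed, 5′ to 3′ along the gene, for the 4 genes whose fractions did not overlap, because these carry the contrast between members that rose and the member that fell. Capitals mark matches to the NF-kB consensus in Sdc4 and to the AP-2 letters GCCNNNGGC in Gpc4, and the Gpc2 and Sdc1 windows held neither. The RefSeq starts of these 4 windows all lie inside the GENCODE spans of the genes. The Gpc2 window lies at chr5:138279888-138280187 (minus strand), that of Gpc4 at chrX:52164874-52165173 (minus strand), that of Sdc4 at chr2:164443139-164443438 (minus strand) and that of Sdc1 at chr12:8771146-8771445 (plus strand).
Gpc2: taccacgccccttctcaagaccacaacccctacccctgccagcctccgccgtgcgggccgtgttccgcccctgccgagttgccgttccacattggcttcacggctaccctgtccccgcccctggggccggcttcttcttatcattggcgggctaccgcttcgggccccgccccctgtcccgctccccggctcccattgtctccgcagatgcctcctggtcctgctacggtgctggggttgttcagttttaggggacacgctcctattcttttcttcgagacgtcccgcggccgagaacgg
Gpc4: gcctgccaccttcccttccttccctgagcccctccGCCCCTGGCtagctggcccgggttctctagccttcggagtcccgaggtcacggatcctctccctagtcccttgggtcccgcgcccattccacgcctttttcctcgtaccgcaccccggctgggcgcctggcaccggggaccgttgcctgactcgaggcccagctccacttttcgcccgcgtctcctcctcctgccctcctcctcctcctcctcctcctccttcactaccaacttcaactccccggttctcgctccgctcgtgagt
Sdc4: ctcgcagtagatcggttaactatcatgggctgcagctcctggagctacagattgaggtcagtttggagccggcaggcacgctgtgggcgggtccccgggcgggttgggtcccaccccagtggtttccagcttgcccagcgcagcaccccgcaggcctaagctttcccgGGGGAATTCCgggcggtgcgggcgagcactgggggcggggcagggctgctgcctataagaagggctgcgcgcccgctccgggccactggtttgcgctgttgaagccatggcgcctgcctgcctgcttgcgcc
Sdc1: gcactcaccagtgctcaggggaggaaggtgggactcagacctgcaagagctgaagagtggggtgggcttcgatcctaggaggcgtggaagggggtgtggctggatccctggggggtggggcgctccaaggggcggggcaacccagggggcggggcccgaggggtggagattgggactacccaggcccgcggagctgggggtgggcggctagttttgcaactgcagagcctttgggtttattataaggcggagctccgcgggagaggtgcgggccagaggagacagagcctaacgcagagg

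Both strands of the 7 windows (Gpc2, Gpc3, Gpc4, Gpc5, Sdc1, Sdc3 and Sdc4) were searched for 6 motifs. The GC box GGGCGG was in all 7, against 35.7% of the 32851 promoters in the table, and the 7 windows held 54.7% to 77.7% G and C against a median of 52.7% over all promoters. The lowest of these values, 54.7%, was that of Gpc5. The Lef/Tcf letters CTTTGA (16.0% of all promoters) and the Gli letters GACCACCCA (0.253%) were in 0 of the 7. The NF-kB consensus was in the Sdc4 window alone among the 7, starting 82 bases before the start site and next to a GC box, and in 4.51% of all promoters. GCCNNNGGC was found in the windows of Gpc3, Gpc4 and Sdc3 (16.6% of all promoters), in each overlapping at least 1 GC box. The E-box CANNTG was in the Gpc2 and Sdc1 windows, against 72.3% of all promoters. These matches describe letters in a 300-base window and are no measure of binding.

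Gpc2, a glypican first known from the developing nervous system (ENSMUSG00000029510; GRCm38 chromosome 5, 138273655 to 138280005, minus strand), had the largest fold change of the family. Its level lay between 33.3 and 55.3 CPM (median 37.3) in placode-enriched libraries and between 8.42 and 15.5 CPM (median 13.3) in IFE libraries. Every placode-enriched library was thus above every IFE library. Means were 40.3 ± 7.79 and 12.5 ± 2.34 CPM (SD, n = 7 each), a log2 fold change of 1.69 ± 0.11 (approximate SE) or 3.22-fold (edgeR adjusted p = 1.14e-07), and single pairs ranged from 1.15 to 2.04. Of its 4274 exon bases, 2376 are shared with another gene model on the same strand, so the assignment of reads to Gpc2 is uncertain.

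Gpc4, a glypican linked to Wnt and FGF signalling in embryos (ENSMUSG00000031119; chromosome X, 52053021 to 52165252, minus strand), lay between 141 and 258 CPM (median 166) in placode-enriched and between 61.2 and 87.8 CPM (median 68.9) in IFE libraries. The groups did not overlap, and the highest value, 258 CPM, came from pair 5. Means of 182 ± 39.9 and 72.9 ± 9.70 CPM (SD, n = 7 each) gave a log2 fold change of 1.30 ± 0.11, or 2.46-fold (edgeR adjusted p = 6.39e-07), higher in 7 of 7 pairs.

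Gpc3, the neighbour of Gpc4 on the X chromosome, is known as a brake on Hedgehog signalling and as the gene of a human overgrowth syndrome (ENSMUSG00000055653; chromosome X, 52272426 to 52613950, minus strand). The genes stand 107 kb apart on the same strand. Gpc3 lay between 140.4 and 205 CPM (median 184) in placode-enriched and between 143 and 157 CPM (median 147) in IFE libraries. The groups overlapped through the placode-enriched library of pair 5 alone, which was below every IFE library. Means were 178 ± 23.1 and 149 ± 5.67 CPM (SD, n = 7 each), so the placode-enriched libraries varied more among themselves (coefficient of variation 12.9%) than the IFE libraries (3.81%). The log2 fold change of 0.25 ± 0.07 passed (edgeR adjusted p = 0.0204; 6 of 7 pairs). Without pair 1 it missed the threshold, at 0.24 (edgeR adjusted p = 0.0559), and it did so in the 4 pairs whose title codes do not start with 27-7 (0.31; edgeR adjusted p = 0.0501) and in the 3 pairs whose codes do (0.17; edgeR adjusted p = 0.412).

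The ratio of Gpc4 to Gpc3, both per kb of exon, was 0.498 ± 0.0731 in IFE and 1.07 ± 0.399 in placode-enriched libraries (SD, n = 7 each). It ranged from 0.394 to 0.588 in IFE and from 0.776 to 1.86 in the placode-enriched fraction, without overlap. Medians were 0.469 in IFE and 0.861 in placode-enriched libraries, where the highest ratio, 1.86, came from pair 5. The within-library log2 ratio was higher in the placode-enriched library of 7 of 7 pairs, by 1.05 ± 0.47 on average (SD). This ratio and that of Sdc4 to Sdc1 were chosen after the values were seen and are given as descriptions, with no test.

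Gpc1, a glypican that acts as a co-receptor for FGF (ENSMUSG00000034220; chromosome 1, 92831645 to 92860779, plus strand), lay between 146 and 251 CPM (median 178) in placode-enriched and between 84.5 and 152 CPM (median 104) in IFE libraries. The ranges overlapped only through the IFE library of pair 3, at 152 CPM, which was above the lowest placode-enriched library. Means were 181 ± 34.5 and 107 ± 22.4 CPM (SD, n = 7 each), a log2 fold change of 0.76 ± 0.13, or 1.69-fold (edgeR adjusted p = 0.00049; 7 of 7 pairs). Single pairs ranged from 0.14 in pair 3 to 1.51 in pair 5. The value was 1.12 in the 3 pairs with 27-7 codes and 0.50 in the 4 others (edgeR adjusted p = 0.00283 and 0.01). The difference between these sets, 0.62 ± 0.20, had an unadjusted p of 0.00863 and an edgeR adjusted p of 0.902 over all genes. On the opposite strand 977 of its 5159 exon bases are shared with Ankmy1, which stood at 0.36 ± 0.279 and 0.468 ± 0.33 CPM.

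Gpc6, a glypican of skeletal growth (ENSMUSG00000058571; chromosome 14, 116925315 to 117976544, plus strand), was low in both fractions. It lay between 2.72 and 5.88 CPM (median 3.81) in placode-enriched and between 1.83 and 4.86 CPM (median 3.25) in IFE libraries, with broad overlap. Its log2 difference of 0.29 ± 0.21 did not pass (edgeR adjusted p = 0.348), and 5 of 7 pairs were above 0.

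Among the syndecans, Sdc4 and Sdc1 differed in opposite directions. Sdc4, a syndecan of focal adhesions (ENSMUSG00000017009; chromosome 2, 164424247 to 164443887, minus strand), lay between 129 and 176 CPM (median 151) in placode-enriched and between 68.6 and 96.5 CPM (median 90.3) in IFE libraries. No IFE library reached the lowest placode-enriched library. Means of 151 ± 17.3 and 86.0 ± 11.1 CPM (SD, n = 7 each) gave a log2 fold change of 0.82 ± 0.07, or 1.76-fold (edgeR adjusted p = 1.57e-06). The 7 pairs lay close together, between 0.60 and 1.06.

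Sdc1, the main syndecan of stratified epithelia (ENSMUSG00000020592; chromosome 12, 8771323 to 8793715, plus strand), lay between 122 and 154 CPM (median 135) in placode-enriched and between 219 and 268 CPM (median 231) in IFE libraries. It was lower in every placode-enriched library than in any IFE library. Means were 137 ± 11.1 and 239 ± 20.2 CPM (SD, n = 7 each), a log2 fold change of -0.79 ± 0.07, which is 1.73-fold lower (edgeR adjusted p = 1.64e-06). Single pairs ranged from -1.13 to -0.65. The suprabasal marker list moved in the same direction, and its part in the Sdc1 difference was not tested.

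The ratio of Sdc4 to Sdc1 per kb of exon was 0.539 ± 0.053 in IFE and 1.65 ± 0.237 in placode-enriched libraries (SD, n = 7 each). IFE libraries ranged from 0.461 to 0.604 and placode-enriched libraries from 1.43 to 2.09. The within-library log2 ratio was higher in 7 of 7 placode-enriched libraries, by 1.61 ± 0.25 (SD), as follows from the opposite directions of the genes in every pair.

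Sdc2 and Sdc3 did not pass. Sdc2, best known from mesenchymal cells (ENSMUSG00000022261; chromosome 15, 32920723 to 33034935, plus strand), lay between 52.8 and 68.8 CPM (median 62.0) in placode-enriched and between 60.7 and 72.1 CPM (median 68.0) in IFE libraries. Its log2 difference was -0.14 ± 0.08 (edgeR adjusted p = 0.226; below 0 in 5 of 7 pairs). Sdc3, best known from the nervous system (ENSMUSG00000025743; chromosome 4, 130792537 to 130826319, plus strand), lay between 13.8 and 31.0 CPM (median 23.2) in placode-enriched and between 19.5 and 33.2 CPM (median 26.9) in IFE libraries. Its log2 difference was -0.26 ± 0.13 (edgeR adjusted p = 0.167). The pairs of Sdc3 were split, with 5 below 0 down to -0.90 and 2, both with 27-7 codes, above 0 up to 0.30. The remaining pair with a 27-7 code, pair 7, was below 0 at -0.36. In the 4 pairs with other codes Sdc3 passed as lower, at -0.50 (edgeR adjusted p = 0.0373), and in the 3 pairs with 27-7 codes it stood at 0.051 (edgeR adjusted p = 0.888). The difference between the sets was 0.54 ± 0.23 (unadjusted p = 0.0365, edgeR adjusted p = 0.902).

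**Figure D2:**
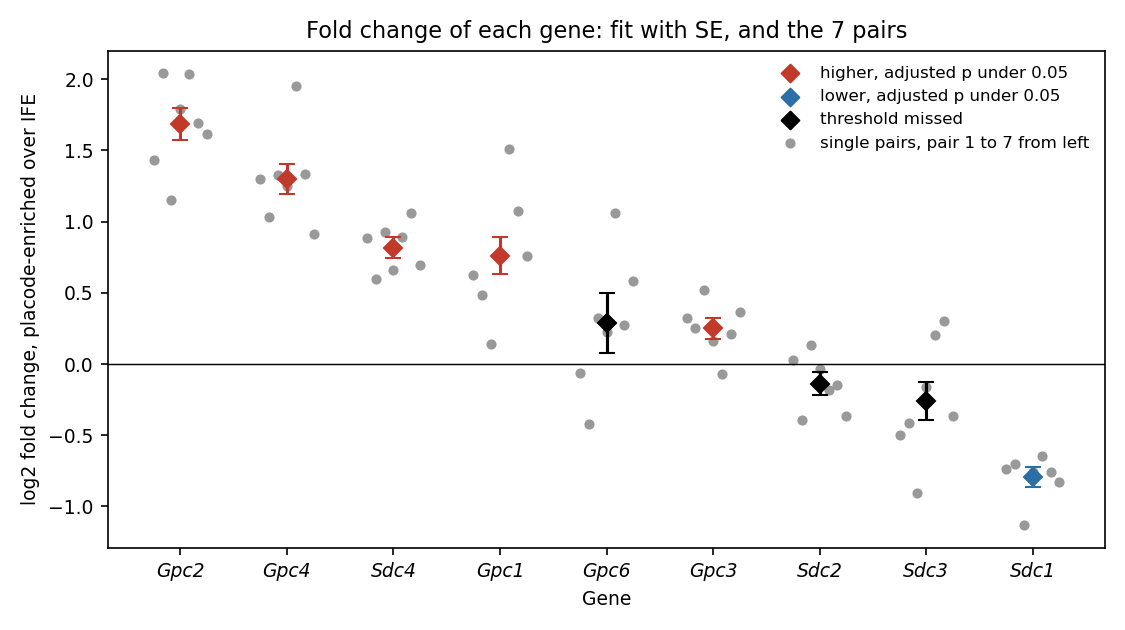
Log2 fold change of placode-enriched over IFE (y axis) for each gene (x axis), with diamonds for the fitted value and its approximate SE and grey points for the 7 pairs. Gpc2, Gpc4, Sdc4, Gpc1 and Gpc3 passed as higher (red), Sdc1 passed as lower (blue), and Gpc6, Sdc2 and Sdc3 missed the threshold (black).

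Levels of different genes were compared as CPM per kb of merged exons. In IFE, Sdc1 was highest at 62.6 ± 5.31, above Gpc3 at 55.3 ± 2.11 in 7 of 7 libraries (CPM per kb, SD, n = 7). Sdc4 (33.8 ± 4.37), Gpc4 (27.5 ± 3.66), Gpc1 (20.8 ± 4.33) and Sdc2 (19.0 ± 1.15) followed, and Sdc3 (4.28 ± 0.875), Gpc2 (2.93 ± 0.549) and Gpc6 (0.502 ± 0.183) were lowest. Gpc1 and Sdc2 were not separated, since Gpc1 was higher in 4 of 7 libraries.

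In placode-enriched libraries the order was different. Gpc4 (68.6 ± 15.1), Gpc3 (66.3 ± 8.59) and Sdc4 (59.4 ± 6.79) stood at the top in CPM per kb of merged exons (SD, n = 7), and Gpc4 exceeded Gpc3 in only 3 of 7 libraries. Sdc1 (36.1 ± 2.92) and Gpc1 (35.1 ± 6.69) were not separated either, with Sdc1 higher in 3 of 7 libraries. Sdc2 (17.3 ± 1.68), Gpc2 (9.42 ± 1.82), Sdc3 (3.62 ± 0.973) and Gpc6 (0.598 ± 0.175) followed, each above the next in 7 of 7 libraries. Since 2376 of the 4274 exon bases of Gpc2 are shared with another gene model, its per-kb level and rank in both fractions are uncertain.

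As shares of the summed per-kb level of the 9 genes, Gpc4 made up 23.0% ± 3.87 in placode-enriched and 12.2% ± 1.69 in IFE libraries, and Sdc1 12.2% ± 1.16 and 27.6% ± 1.35 (SD, n = 7 each). The 5 glypicans together made up 60.7% ± 2.72 (56.5% to 65.2%) of the sum in placode-enriched and 47.2% ± 1.31 (45.6% to 49.1%) in IFE libraries. These sizes and the order of the genes depend on the length used. Per kb of the longest coding sequence the glypican share was 39.9% ± 3.09 against 27.6% ± 0.821. The order then began with Sdc4, Sdc1 and Gpc4 in the placode-enriched fraction and with Sdc1, Sdc4 and Sdc2 in IFE. By coding length the mean share of Gpc4 was 12.5% in placode-enriched and 5.97% in IFE libraries, and that of Gpc3 was 11.9% and 11.7%. Per kb of the longest transcript Gpc3 stood above Gpc4 in the placode-enriched fraction. Under each of the 3 lengths the summed share of the glypicans was higher in placode-enriched than in IFE libraries. Per kb of merged exons the mean share of Gpc3 was lower in placode-enriched libraries, at 22.5% against 24.5% in IFE. That of Gpc6 was 0.201% ± 0.0553 against 0.223% ± 0.0867 (SD). Per kb of the longest transcript Gpc3 stood at 24.6% against 26.0% and Gpc6 at 0.28% against 0.303%. The summed level of the 4 syndecans was 116 ± 8.25 against 120 ± 8.35 CPM per kb, ranges that overlapped, and that of the glypicans 180.0 ± 16.6 against 107 ± 4.67 CPM per kb, ranges that did not.

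**Figure D3:**
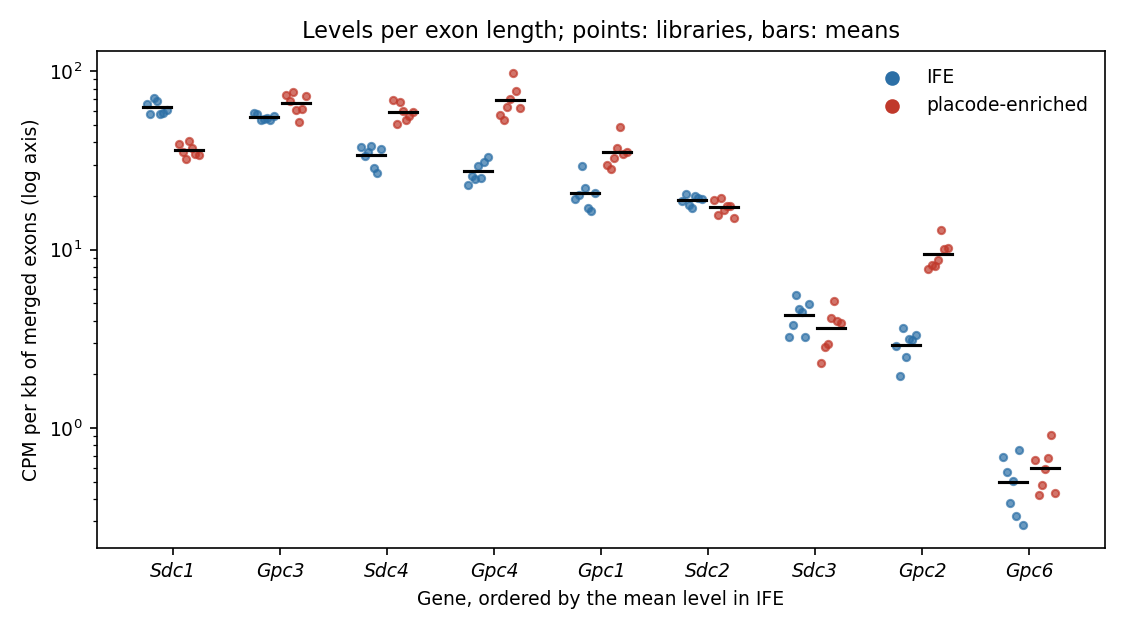
Level of each gene per exon length (y axis, CPM per kb, log axis) with genes on the x axis in the order of their mean in IFE, points for libraries and bars for means (n = 7 each). Sdc1 led in IFE at 62.6, and Gpc4, Gpc3 and Sdc4 stood between 59.4 and 68.6 in the placode-enriched fraction.

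The genes whose levels across the 14 libraries were most like those of Gpc2 were Tnip1, Foxi3 and Runx2 (Pearson r between 0.988 and 0.991). For Gpc4 they were Abhd2, Traf4 and Adamts10 (r between 0.983 and 0.985), and for Sdc4 Cav1, Pck2 and Klhl24 (r between 0.961 and 0.976). These are the top 3 of 9375 genes with a mean of at least 10 CPM. All 14 points share the split into fractions, so the values describe likeness of pattern only. Over the 7 within-pair differences, where that split is removed, the most alike were Irf3, Adar and Lmf2 for Gpc2 (r between 0.991 and 0.993), Actg1, BC005537 and Hist1h3h for Gpc4 (0.971 to 0.975) and Fam84b, Pdcd2l and Mcm4 for Sdc4 (0.936 to 0.967). None of the genes found over the libraries returned among those found over the differences, and each value rests on only 7 points.

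Among enzymes that start and extend heparan sulphate chains, Xylt2 and Extl3 were higher and Extl1 was lower. These were the 3 of 11 tested genes of the linkage region and chain polymerisation that passed (median log2 fold change -0.10), a share close to the 31.1% of all genes. Xylt2, which starts the linkage region by adding xylose to the core protein, stood at 59.2 ± 14.3 against 36.6 ± 4.07 CPM in IFE (SD, n = 7 each; log2 0.67 ± 0.11, edgeR adjusted p = 0.000286). Extl3, which adds the first glucosamine of a heparan sulphate chain, stood at 139.8 ± 16.8 against 103 ± 7.43 CPM (0.43 ± 0.07, edgeR adjusted p = 0.000488). Extl1 fell (-1.06 ± 0.20, edgeR adjusted p = 0.00121) from a low mean of 5.04 CPM in IFE. The polymerase genes Ext1 (96.1 against 99.1 CPM) and Ext2 (52.2 against 56.6 CPM) did not pass.

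Of 21 genes of sulphation, epimerisation and precursor supply, 15 were tested, 4 were higher, 2 were lower and 9 did not pass (median 0.04). The shares over all genes tested were 15.5% higher and 15.6% lower. Hs3st3a1 and Hs3st3b1, which encode 3-O-sulphotransferases with near-identical catalytic domains, both rose. Hs3st3a1 stood at 13.1 ± 3.41 against 3.30 ± 0.654 CPM (1.96 ± 0.15, edgeR adjusted p = 3.2e-07) and Hs3st3b1 at 62.8 ± 12.9 against 35.3 ± 5.34 CPM (0.82 ± 0.09, edgeR adjusted p = 6.78e-06). Reads could be split between them, so their separate values are uncertain. Ugdh, which makes the glucuronic acid precursor, rose by 0.45 ± 0.11, and Hs6st2 by 0.78 ± 0.27 at under 4 CPM. Another 3-O-sulphotransferase gene, Hs3st1, fell (-1.19 ± 0.32), as did the epimerase gene Glce (-0.35 ± 0.09). Ndst1, the most abundant N-deacetylase and N-sulphotransferase gene of the list, stood at 170.0 ± 30.1 against 174 ± 23.1 CPM and did not pass.

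Genes that edit chains outside the cell or cut core proteins went both ways. Of 13, 9 were tested, 3 were higher, 4 were lower and 2 did not pass (median -0.20). Among all genes tested, 15.5% were higher and 15.6% lower. Mmp9 (10.9 ± 1.87 against 0.602 ± 0.299 CPM; log2 4.23 ± 0.24) and Mmp14 (122 ± 20.6 against 76.5 ± 10.1 CPM; 0.67 ± 0.10), proteases able to shed syndecans, rose with Furin (0.49 ± 0.10), a convertase. In IFE libraries Mmp9 was near the floor, between 0.171 and 1.02 CPM. Mmp9 passed the low-count filter only through the placode-enriched libraries, so its call is no independent support. Pcsk6, another convertase, fell from 52.7 ± 3.00 CPM in IFE to 14.1 ± 1.25 CPM (-1.90 ± 0.08), and the sheddase genes Adam10 (-0.22 ± 0.08) and Adam17 (-0.30 ± 0.10) fell slightly. Of the extracellular 6-O-sulphatases, Sulf1 fell (-0.55 ± 0.18) from a mean of 5.33 to 3.57 CPM, and Sulf2 (142 ± 22.8 against 148 ± 15.3 CPM) did not pass. Notum, which removes the lipid of Wnt proteins, was under 1 CPM in the mean and was not tested.

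**Figure D4:**
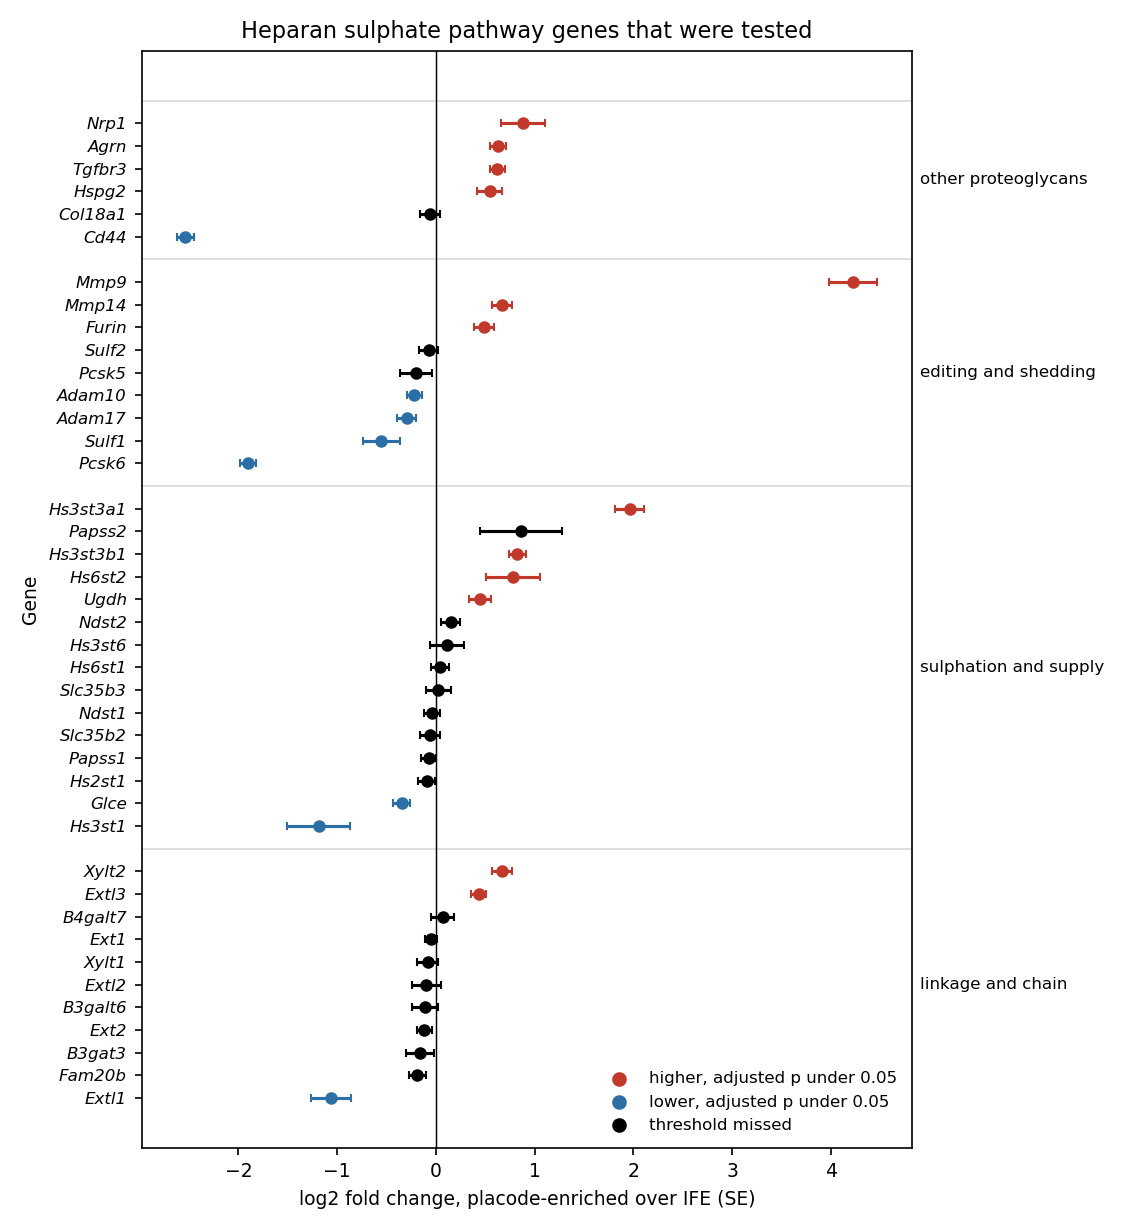
Log2 fold change of placode-enriched over IFE with approximate SE (x axis) for tested genes of heparan sulphate synthesis, editing, shedding and other proteoglycans (y axis, grouped). Red and blue points passed as higher and lower and black points missed the threshold, and Mmp9 (4.23) and Cd44 (-2.54) stood farthest from 0. Mmp9 was near the floor in IFE libraries, at 0.171 to 1.02 CPM.

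Of 12 tested genes for partners of the syndecan tail, 1 was higher, 5 were lower and 6 did not pass (median -0.05). All genes tested gave 15.5% higher and 15.6% lower. Cask, a PDZ scaffold, rose from 101 ± 7.36 CPM in IFE to 152 ± 12.6 CPM (0.59 ± 0.08). Tiam1, an activator of Rac, fell from 353 ± 40.9 to 197 ± 28.7 CPM (-0.85 ± 0.06), and Prkca, the protein kinase bound by the tail of Sdc4, fell by 0.72 ± 0.13 on the log2 scale. Ezr, which links membrane proteins to actin, had a log2 fold change of -0.43 ± 0.06, Tns1 of -0.61 ± 0.11 and Gipc1 of -0.28 ± 0.09. Sdcbp, the gene of the PDZ protein syntenin, stood at 44.8 ± 11.2 against 44.7 ± 9.98 CPM.

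Of 6 other tested proteoglycan genes, 4 were higher, 1 was lower and 1 did not pass (median 0.58). This compares with 15.5% higher and 15.6% lower over all genes tested, for a list chosen with earlier results known. The basement membrane proteoglycan genes Agrn (691 ± 137 against 444 ± 61.3 CPM; 0.63 ± 0.08) and Hspg2 (0.55 ± 0.13) rose, together with the part-time proteoglycan genes Tgfbr3 (0.62 ± 0.08) and Nrp1 (0.88 ± 0.22). Cd44, a hyaluronan receptor that can carry heparan sulphate, fell from 218 ± 16.8 to 37.8 ± 5.20 CPM (-2.54 ± 0.09).

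Of 11 tested receptors and binding proteins linked to glypicans or heparan sulphate, 6 were higher, 1 was lower and 4 did not pass (median 0.61). Over all genes tested, 15.5% were higher and 15.6% lower. The list was chosen with earlier results of these data known, so its count is a description only. Ptch1, the Hedgehog receptor, stood at 308 ± 53.2 against 102 ± 18.3 CPM (1.59 ± 0.08), and Robo1 at 291 ± 34.5 against 118 ± 14.2 CPM (1.30 ± 0.08). Robo2 (2.15 ± 0.11), its ligand gene Slit2 (2.76 ± 0.29), and the receptor phosphatase gene Ptprd (0.61 ± 0.09) rose as well. The sixth gene that rose was Hhip, which encodes a Hedgehog-binding protein and was named after its values were seen. It lay between 0.442 and 3.35 CPM in placode-enriched libraries and at the floor in IFE libraries, between 0 and 0.0856 CPM. Hhip passed the low-count filter only through the placode-enriched libraries. Its call (edgeR adjusted p = 1.34e-05, higher in 7 of 7 pairs) and the lack of overlap are therefore no independent support. Lrp1, an endocytic receptor that takes up Gpc3, fell (-0.30 ± 0.08), and the tetraspanin gene Cd81 stood at 110.0 ± 12.6 against 109.9 ± 10.7 CPM.

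The labelled cell type was checked against epithelial markers, whose sum lay between 4935 and 6086 CPM in placode-enriched and between 5516 and 6714 CPM in IFE libraries. Melanoblast markers summed to 8.31 to 14.6 against 124 to 222 CPM, all 8 tested lower in the placode-enriched fraction. Markers of Schwann cells and neurons summed to 81.8 to 111 against 144 to 158 CPM, with 3 of 5 tested lower. Dermal fibroblast markers summed to 1216 to 2001 against 1120 to 1459 CPM, of which 4 of 9 tested were higher and 2 lower, while Pdgfra and Twist2 were under 1 CPM. The parts of these cell types in the differences of the glypicans and syndecans were not tested. Of the endothelial, immune and muscle lists, only Pecam1 and Cd74 were at or above 1 CPM in the mean, and Cd74 stood at 39.0 against 3.84 CPM. Merkel cell markers summed to 13.2 to 19.6 against 2.22 to 5.34 CPM, with all 3 tested higher, while Atoh1, Krt20 and Isl1 were under 1 CPM. For comparison with these counts, 15.5% of all genes tested were higher and 15.6% lower.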

How the data were processed

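RNA-seq was analysed in 14 libraries from sorted E14.5 dorsal skin epithelium, 7 per fraction. The values are raw read counts, which the authors deposited for each Ensembl gene. The submitters' processing notes name the builds GRCm38 and mm10 and the tools HTSeq, STAR (given as version 1.5), Trimmomatic, bcl2fastq (2.17.1.14), MultiQC and FastQC. Per the labels' protocols, libraries were made with the Ovation SoLo kit. Strand setting, annotation release and handling of duplicates: not given in the sources used here. Antisense genes may therefore share reads.

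Symbols, positions and exon lengths came from GENCODE M21 (GRCm38), with 25949 of 26252 identifiers matched (the 303 others held 0.436% of counts). In edgeR 4.0.16 (R 4.3.3), low counts were removed by filterByExpr, TMM gave the scaling, and the robust quasi-likelihood test contrasted both fractions within pairs (pair block), adjusted by Benjamini-Hochberg over 15382 genes at 0.05. Fold changes are log2 (placode-enriched over IFE; prior count 0.125). SE is the coefficient over the square root of F. Pair differences used a prior count of 2. CPM use TMM-scaled totals. The pairing comes from the title codes and the design text. Deviations from the fraction means correlated between libraries of a pair by -0.132 to 0.195. A library matched its own pair best in 3 of 7 pairs. Since no label says which pools share a day or litter, a p-value here reflects only how these pools vary, and totals of 23.8 to 49.5 mega counts limit precision only in part.

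The members and gene lists were chosen with earlier results of these data known. Named were all members, list genes past the threshold with at least 5 CPM in the higher fraction (up to 6 per list, others where a count needed them), and genes most like the 3 members that changed most. Alternatives covered scaling, filters, DESeq2 1.42.0, limma-voom 3.58.1, the block, left-out pairs, pair sets, a threshold of 0.01 and gene length. A test of the difference between pair sets was added after seeing the data. Only the edgeR test blocked by pair was tried on simulated counts, which held no pair effects. The other tests were not tried in this way. Tables and figures used Python 3.11.15, pandas 2.3.3, numpy 2.4.6 and matplotlib 3.10.9.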

Additional observations from a re-analysis of the deposited data

Results flagged for a closer look

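In 27 sets of 7 values examined (each member's CPM in each fraction, and its 7 pair differences), 3 held a value whose gap to the nearest other exceeded 0.568 of the range. Chance gives about 1 in 20 such sets. Gpc1 in the placode-enriched library of pair 5 stood at 251 CPM, with the other 6 libraries between 146 and 191 CPM. The log2 difference of Gpc4 in pair 5 was 1.95, with the other pairs between 0.91 and 1.34. The log2 difference of Sdc1 in pair 3 was -1.13, with the other pairs between -0.83 and -0.65. Without pair 5 the fold change of Gpc1 was 0.64 (edgeR adjusted p = 0.00034).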

How the results depend on the processing

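Under each alternative of scaling, filter, test (DESeq2, limma-voom) and block, 5 members were higher and 1 was lower. Leaving out each pair in turn gave 4 to 5 higher and 1 lower, with 3953 to 5229 genes called. The 3 pairs with 27-7 codes gave 2331 calls and the 4 others 3087, against 4786, from fewer libraries, and in the 4 others 2 members were lower, Sdc1 and Sdc3. In the 3 pairs with 27-7 codes the log2 fold change of Sdc3 was near 0, at 0.051 against -0.26 (edgeR adjusted p = 0.888). These pairs were themselves split, with pair 7 at -0.36, and the cause was not tested. Gpc3 lost its call without pair 1, in each set of pairs and at a threshold of 0.01 (range over 18 settings 0.17 to 0.31). Without the replicate block, 4689 genes were called, with 5 members higher and 1 lower, and it changed no member's call. Shares per kb moved by more than the spread of libraries in 15 of 18 cases with coding length and in 6 of 18 with the longest transcript. Depth limits Gpc6 most, at 61 to 186 counts.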
